A study of Homo sapiens with 9 samples.

Results

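Superoxide dismutases, glutathione peroxidases and peroxiredoxins are enzymes that remove superoxide and peroxides from human cells. The 10 genes described here, SOD1, SOD2, SOD3, GPX1, GPX2, GPX3, GPX4, PRDX1, PRDX4 and PRDX6, were chosen by name as such enzymes and matched by symbol to the Ensembl gene IDs of the deposited counts. This choice, and that of the gene lists further on, was made with earlier results of these data known. A counted ID was paired with 9 of the 10 names, among 60880 counted IDs in all, and SOD2 is not analysed here. The cells were SNU5, an established human gastric carcinoma line, and the study compared antibody delivered on gold with free antibody. All cells received ramucirumab, an antibody against the receptor VEGFR2, at an antibody concentration of 8 μg/mL for 24 h. It was conjugated through polyethylene glycol to gold nanorods in the NR group (AuNR-PEG-Ab), conjugated in the same way to gold spheres in the SP group (AuSP-PEG-Ab), and given alone in the Ab group. Each group held 3 libraries of poly-A RNA, with totals between 13863155 counts (NR replicate 2) and 26318227 counts (Ab replicate 2). Untreated cells, gold without antibody and antibody on polyethylene glycol without gold were not analysed here. Every fold change is therefore relative to antibody-treated cells or to the other particle. Gold and polyethylene glycol came together in NR and SP, so their parts in a comparison with Ab cannot be told apart. The study describes its replicates as biological and its in vitro experiments as repeated independently, while the labels do not tie the 3 libraries of a group to separate cultures, and the p-values measure the spread between these libraries.

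Superoxide dismutases turn superoxide into hydrogen peroxide. SOD1 is the copper and zinc enzyme of the cytosol, and SOD3 is its secreted relative. Glutathione peroxidases reduce peroxides with electrons from glutathione: GPX1 acts in the cytosol and mitochondria, GPX2 is the form of the gut epithelium, GPX3 is secreted into plasma, and GPX4 reduces lipid hydroperoxides within membranes and so protects cells from ferroptosis. Peroxiredoxins reduce peroxides with a reactive cysteine. PRDX1 is a cytosolic enzyme regenerated by thioredoxin, PRDX4 works in the endoplasmic reticulum, and PRDX6 takes its electrons from glutathione with the help of GSTP1 and also cleaves phospholipids.

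The catalytic codon differs between the glutathione peroxidases and the peroxiredoxins described here. It is shown because the supply genes of these enzymes are described separately further on. The GRCh37 sequence around the catalytic codon is given 5′ to 3′ on the coding strand, with the codon in capitals. The TGA of the glutathione peroxidases is annotated as a selenocysteine codon and not as a stop, and each window lies within a coding exon.
GPX1: gcgtccctcTGAggcaccacg
GPX2: gcttcgctcTGAggcacaacc
GPX3: gccagctacTGAggcctgacg
GPX4: gcctcccagTGAggcaagacc
PRDX1: acctttgtgTGCcccacggag
PRDX4: acatttgtgTGTccaactgaa
PRDX6: accccagtgTGCaccacagag

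The GPX1 window is chr3:49395556-49395576 on the minus strand, that of GPX2 is chr14:65409316-65409336 on the minus strand, that of GPX3 is chr5:150405021-150405041 on the plus strand, and that of GPX4 is chr19:1105393-1105413 on the plus strand. For the peroxiredoxins the codon was located as the only in-frame match of the peroxidatic cysteine motif in the coding exons. The windows are chr1:45981421-45981441 on the minus strand for PRDX1, chrX:23693108-23693128 on the plus strand for PRDX4, and chr1:173450499-173450519 on the plus strand for PRDX6. The glutathione peroxidases shown share the bases TGAggc. The peroxiredoxins shown carry an ordinary cysteine codon, TGC or TGT, at the codon on which each window was centred.

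Before the groups were compared, the labelled cell type was checked. Of the 7 epithelial markers, KRT8 was the most abundant over the 9 libraries, and the summed level of the list lay between 2940 and 3770 CPM (counts of a gene per 1e6 counts of the library, with the library size scaled by TMM factors). Within that sum the members moved in opposite directions. KRT8 averaged 648 CPM in Ab, 1894 CPM in NR and 1982 CPM in SP, whereas KRT7, the most abundant of the list in Ab, averaged 2167 CPM there, 1013 CPM in NR and 1162 CPM in SP. EPCAM, CDH1 and KRT18 were also higher in NR and SP than in Ab, EPCAM at 5.21 and 4.93 against 1.59 CPM and CDH1 at 5.68 and 6.79 against 0.292 CPM. CLDN4 did not pass, and KRT19 was at 0 or 1 count in every library. The 7 leukocyte markers summed to at most 1.18 CPM in any library, CD14 being the most abundant, with PTPRC, CD3E, MS4A1, CD68 and LYZ at 2 counts or fewer in each. Their sum averaged 0.29 CPM in NR, 0.265 CPM in SP and 0.699 CPM in Ab. CD14, at 2, 7 and 3 counts in NR and 21, 13 and 8 in Ab, passed as lower in NR (log2 fold change -1.525, adjusted p = 0.0201, edgeR). It was not tested in SP against Ab. Of CD68 and LYZ, 85.6% and 34.7% of the exon bases are annotated in another gene as well, so their counts may be too low. Endothelial and fibroblast markers also moved with the groups. The 3 matched endothelial markers, of which CDH5 was the most abundant, summed to 23.1, 23.4 and 21.2 CPM in NR, to 20.8, 22.9 and 24.3 in SP and to 3.53, 3.70 and 5.07 in Ab. Of these, TEK was at 3 counts or fewer in every library and VWF at 0, 0 and 1 count in Ab. The 5 fibroblast markers, with COL1A1 the most abundant over the 9 libraries, summed to 100, 96.7 and 94.9 CPM in NR, to 99.8, 108 and 106 in SP and to 44.9, 41.7 and 17.4 in Ab. Only DCN and LUM of these 5 passed, at 35.2- and 39.5-fold in NR and 37.5- and 40.7-fold in SP. COL1A1 and COL3A1 did not pass, and COL1A2, which did not pass either, was uneven within groups, with 198, 278 and 33 counts in the Ab libraries, 37, 0 and 0 in those of NR, and 49, 49 and 43 in those of SP. In bulk RNA, more cells that express these genes and more RNA per cell cannot be told apart. The share of counts on mitochondrial genes also moved with the groups, from 4.36% to 4.66% in NR and SP and from 3.41% to 3.71% in Ab. The part of these markers and of this share in the results was not tested.

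Of the 9 matched genes, 6 were abundant in SNU5 cells, GPX3 was near its detection limit and SOD3 and GPX2 were at it. Levels can be compared between genes only per length, and are given as CPM per kilobase of annotated exon in the Ab group. GPX1 was highest at 533 ± 29.7 (SD, n = 3), and PRDX1 followed at 256 ± 13.3. PRDX6, GPX4 and PRDX4 stood at 139 ± 5.05, 128 ± 9.32 and 122 ± 5.55, and SOD1 at 44.6 ± 0.342. The libraries of PRDX6 (134 to 144) overlapped those of GPX4 (119 to 138), which overlapped those of PRDX4 (117 to 128), so the order of these neighbours was not separated by their spread. With the length of the longest transcript in place of the exon total, PRDX4 stood above GPX4 and PRDX6 took the fifth place in Ab. In NR and SP, on the exon scale, the order was GPX1, PRDX1, PRDX6, PRDX4, GPX4 and SOD1, with no overlap of libraries between neighbours.

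**Figure D1:**
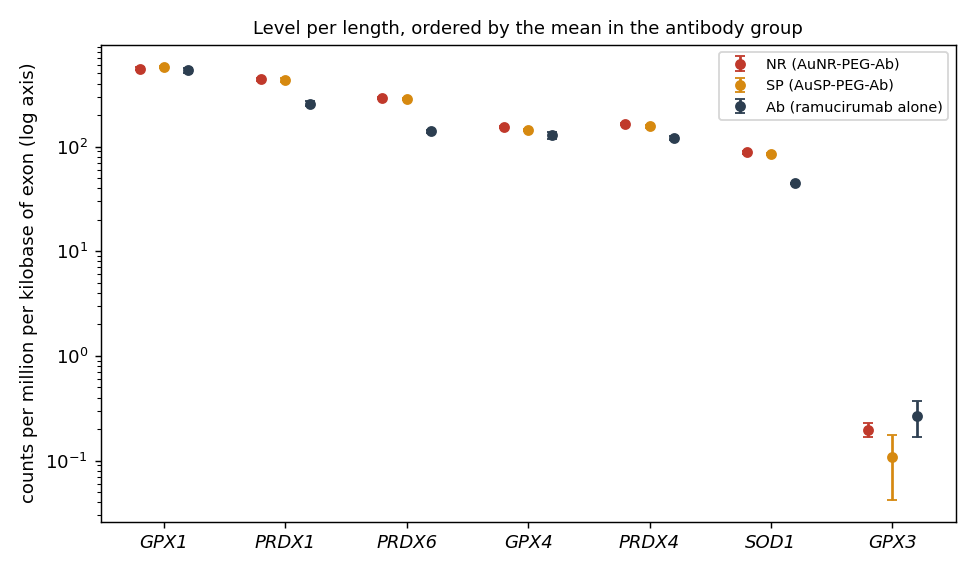
Level of the 7 tested genes as CPM per kilobase of exon (log axis) in NR, SP and Ab, as mean and SD of 3 libraries, ordered by the Ab mean. In Ab the 6 abundant genes lie between 44.6 (SOD1) and 533 (GPX1), and GPX3 lies at 0.269.

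SOD3 (ENSG00000109610) was listed at 0 counts in 8 libraries and at 1 count in Ab replicate 2. GPX2 (ENSG00000176153) held 0 to 2 counts in every library. In the shallowest library, NR replicate 2, a count of 0 allows a level of up to 0.216 CPM (3 counts, counting error only). Neither gene was tested, and no direction can be given for either at this depth.

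In NR against Ab, 5 of the 7 tested genes were higher in NR (SOD1, GPX4, PRDX1, PRDX4 and PRDX6), none was lower, and GPX1 and GPX3 did not pass. Here "passed" means a Benjamini-Hochberg adjusted p of at most 0.05 in the quasi-likelihood test of edgeR, with every tested gene in the adjustment. Of the 15009 genes tested in this comparison, 36.4% passed as higher, 36.4% as lower and 72.7% in either direction, so passing was the usual case. PRDX6 was the only member also past 2-fold, a size that 12.4% of all genes reached as higher. The median log2 fold change was 0.39 over the 7 tested members and -0.0055 over all tested genes. Because the members were chosen with earlier results of these data known, such medians only describe the list and do not test it. In SP against Ab, the same 5 genes passed as higher and GPX3 passed as lower, where 36.4% of 15068 genes passed as higher, 36.6% as lower and 73.0% in either direction. PRDX6 was past 2-fold as higher and GPX3 as lower, against 12.6% and 10.6% of all genes. The members' median was 0.34 and that of all genes -0.0067. The 3 Ab libraries serve in both of these comparisons, which are therefore not independent. In each of them the libraries of the same 5 genes lay wholly above those of Ab, as did 38.8% of all genes in NR and 39.0% in SP.

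Summed over the 9 matched genes, the level was 3032, 2954 and 2900 CPM in NR, 2960, 2860 and 2977 CPM in SP, and 2147, 1965 and 2088 CPM in Ab. The ratio of the means was 1.43 for NR and 1.42 for SP. By family, the ratio of NR to Ab was 1.97 for the dismutases, 1.75 for the peroxiredoxins and 1.08 for the glutathione peroxidases, and SP gave 1.92, 1.72 and 1.08. The first of these is SOD1 alone, since SOD3 added at most 1 count to any library and SOD2 is in no sum. Whether SOD2 reads were counted under an ID that no table used here names is not known, so these sums are of the matched genes and not of the whole families.

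**Figure D2:**
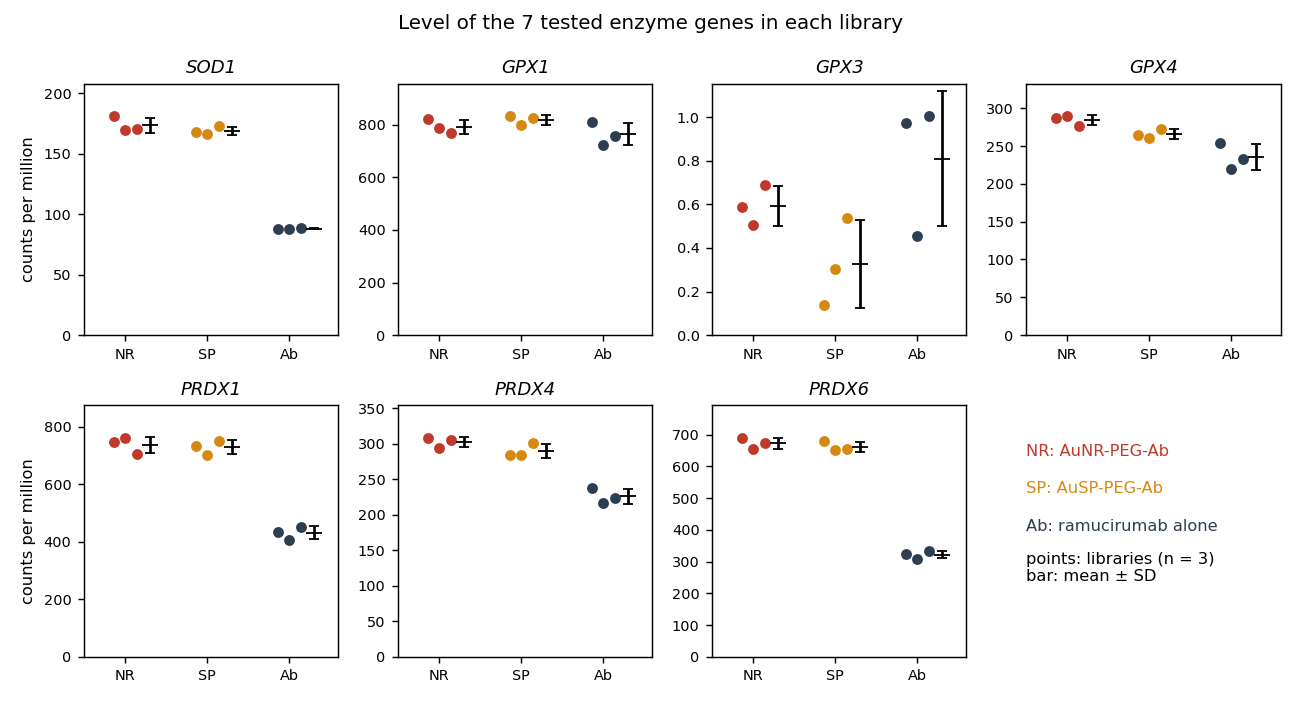
CPM of each tested gene in each library (points, n = 3 per group) with the mean and SD beside them, each panel on its own linear axis from 0. SOD1, PRDX1 and PRDX6 show NR and SP at a similar height well above Ab, GPX1 overlaps between the groups, and GPX3 stays near or under 1 CPM.

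SOD1 (ENSG00000142168, GRCh37 chr21:33031979-33041244, plus strand) was higher on both particles. It stood at 180.7, 169.2 and 170.4 CPM in NR, at 168.1, 165.8 and 172.4 CPM in SP, and at 88.1, 87.4 and 88.7 CPM in Ab. The NR and SP libraries overlapped each other and all lay far above the 3 Ab libraries, which lay close together. The log2 fold change was 0.95 (SE 0.0473, adjusted p = 1.45e-16, edgeR) in NR and 0.91 (SE 0.0490, adjusted p = 1.48e-15, edgeR) in SP. The 95% intervals, 0.86 to 1.05 and 0.81 to 1.01, both reach just past 2-fold, so on these libraries it cannot be said on which side of 2-fold the gene lies.

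SOD1 needs copper, and of the 4 listed copper delivery genes 3 rose and 1 fell in both comparisons. For this and the following lists, 36.4% of all tested genes passed as higher in each comparison, and 36.4% (NR) and 36.6% (SP) as lower. CCS, the chaperone that loads copper onto SOD1, averaged 22.8 CPM in NR and 24.9 CPM in SP against 17.0 CPM in Ab (log2 fold changes 0.40 and 0.52, edgeR adjusted p = 0.000135 and 2.43e-06). ATP7A, a copper exporter that also supplies the secretory pathway, rose by 0.90 and 1.03 on the log2 scale (adjusted p = 2.07e-09 and 8.35e-10). SLC31A1, the copper importer, fell by 0.67 and 0.69 on the log2 scale (adjusted p = 1.67e-12 and 2.56e-11). ATOX1, a copper carrier named here after its values were seen, had the largest change of the list at 1.78 in NR and 1.69 in SP.

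Of GPX1, GPX3 and GPX4, the glutathione peroxidases of the 10 genes that could be tested, GPX4 alone rose, and by little. GPX4 (ENSG00000167468, chr19:1103981-1106790, plus strand) stood at 287.6, 289.1 and 277.1 CPM in NR, at 265.1, 260.2 and 272.3 CPM in SP, and at 253.7, 219.8 and 232.4 CPM in Ab. No library of NR or SP overlapped those of Ab, but Ab replicate 1 lay closer to the lowest SP library than to Ab replicate 2. This gave a log2 fold change of 0.25 in NR (SE 0.0481, adjusted p = 4.11e-05, edgeR), a 1.19-fold level, and 0.15 in SP (SE 0.0498, adjusted p = 0.00858, edgeR), a 1.11-fold level. Without Ab replicate 2 the SP value was 0.10 and no longer passed (adjusted p = 0.103, edgeR), whereas the NR call passed under each of its 16 alternatives. A required 2-fold change, counted apart from these, is not reached by GPX4 in either comparison.

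GPX1 (ENSG00000233276, chr3:49394607-49396038, minus strand), the most abundant of the genes described, showed no change that passed. Its levels were 820.5, 785.6 and 769.4 CPM in NR, 831.4, 797.4 and 825.0 CPM in SP, and 808.4, 723.9 and 758.5 CPM in Ab. The Ab libraries overlapped those of both other groups. The log2 fold change was 0.03 in NR (95% interval -0.06 to 0.12, adjusted p = 0.594, edgeR) and 0.07 in SP (95% interval -0.02 to 0.17, adjusted p = 0.147, edgeR). A rise in NR of more than 0.12 on the log2 scale lies outside the first interval. In SP the value passed under scaling by library totals (0.10, adjusted p = 0.0426, edgeR) and under 4 other settings, among them totals without mitochondrial genes, a length and GC offset (0.11, adjusted p = 0.00739) and the fit without Ab replicate 1 (0.11, adjusted p = 0.00806). The annotation places 39.9% of the exon bases of GPX1 also in another same-strand gene, which has no counted ID here. The pseudogene GPX1P1 held between 5.45% and 6.63% as many counts as GPX1. Part of the GPX1 reads is therefore uncertain, and the size of that part was not measured.

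GPX3 (ENSG00000211445, chr5:150400152-150408549, plus strand) was seen only at 15, 7 and 11 counts in NR, at 3, 7 and 11 counts in SP and at 19, 12 and 21 counts in Ab. On the CPM scale SP replicate 3 (0.536) lay above Ab replicate 2 (0.453), so the groups overlapped. The log2 fold change was -0.43 in NR (95% interval -1.22 to 0.37, adjusted p = 0.326, edgeR) and -1.30 in SP (95% interval -2.26 to -0.34, adjusted p = 0.0144, edgeR). The SP call was lost with DESeq2 (-1.32, adjusted p = 0.0827) and without any of SP replicate 1, SP replicate 2, Ab replicate 1 or Ab replicate 3, where the values ran from -0.95 to -1.27. With each library left out, the GPX3 value ranged from -0.755 to -0.236 in NR and from -1.81 to -0.95 in SP. At this depth the level of the secreted enzyme was too low for a firm fold change.

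Selenocysteine insertion is a step all of these glutathione peroxidases need. Of the 9 listed genes for it, 1 rose and 6 fell in NR, and 1 rose and 7 fell in SP, with medians of -0.44 and -0.51 on the log2 scale, where 36.4% of all tested genes passed as lower in NR and 36.6% in SP. SEPHS1 fell from 130.5 CPM in Ab to 98.8 CPM in NR and 90.3 CPM in SP (log2 fold changes -0.43 and -0.56, edgeR adjusted p = 8.62e-09 and 1.05e-10). SEPHS2, which makes the selenium donor, fell by 0.44 and 0.40 on the log2 scale (adjusted p = 2.58e-08 and 2.77e-07). LRP8, a receptor for the selenium carrier SELENOP, was at 0.04 and 0.03 and did not pass (adjusted p = 0.469 and 0.678, edgeR). The riser was TRNAU1AP, a factor that binds the selenocysteine tRNA, at 0.37 and 0.32, and it is named here after its values were seen.

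Of the 12 genes of the glutathione list, 6 rose and 5 fell in NR, and 6 rose and 4 fell in SP, beside 36.4% and 36.4% of all tested genes in NR and 36.4% and 36.6% in SP. GSTP1, the transferase that glutathionylates PRDX6 in its catalytic cycle, had the highest mean CPM of them over all 9 libraries and rose from 252 CPM in Ab to 848 CPM in NR and 874 CPM in SP (log2 fold changes 1.73 and 1.77, edgeR adjusted p = 8.43e-23 and 6.30e-22). SLC3A2, the heavy chain of the cystine importer, fell by 1.21 and 1.12 on the log2 scale (adjusted p = 3.10e-20 and 4.22e-18). SLC25A39, the mitochondrial glutathione carrier, rose by 0.28 and 0.31 (adjusted p = 1.09e-05 and 4.88e-06). Named after their values were seen, GSR, which recycles oxidised glutathione, was at 1.41 and 1.32, SLC7A11, the light chain of the cystine importer, at -1.43 and -1.10, and CHAC1, which degrades glutathione, at -4.35 and -4.14.

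All 3 peroxiredoxins described rose on both particles, PRDX6 most and PRDX4 least. PRDX6 (ENSG00000117592, chr1:173446469-173457954, plus strand) stood at 688.9, 655.3 and 672.3 CPM in NR, at 678.5, 650.6 and 655.1 CPM in SP, and at 323.7, 309.3 and 332.4 CPM in Ab. Every NR and SP library lay far above the highest Ab library. PRDX6 changed by 1.04 on the log2 scale (SE 0.0419, adjusted p = 1.26e-18, edgeR) in NR and 1.01 (SE 0.0438, adjusted p = 1.18e-17, edgeR) in SP. The 95% intervals, 0.95 to 1.12 and 0.92 to 1.10, contain 1, so the gene's place past 2-fold was not separated from a place just under it, and with the length and GC offset it stood at 0.933 and 0.945, under 2-fold.

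PRDX1 (ENSG00000117450, chr1:45976586-46008404, minus strand) stood at 745.8, 759.7 and 705.6 CPM in NR, at 732.4, 701.1 and 749.9 CPM in SP, and at 434.9, 406.6 and 450.9 CPM in Ab. The Ab libraries lay below all others. It changed by 0.75 on the log2 scale (SE 0.0440, adjusted p = 6.50e-15, edgeR) in NR and 0.73 (SE 0.0458, adjusted p = 4.29e-14, edgeR) in SP. The annotation overlaps 29.8% of its exon bases with MMACHC on the opposite strand, and the strand setting of the counting is not given in the sources used here. MMACHC averaged 23.4 CPM in NR, 25.0 CPM in SP and 10.2 CPM in Ab, far below PRDX1.

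PRDX4 (ENSG00000123131, chrX:23682379-23704514, plus strand) stood at 308.0, 294.7 and 304.8 CPM in NR, at 284.4, 285.0 and 301.8 CPM in SP, and at 237.5, 217.3 and 223.7 CPM in Ab. The groups did not overlap with Ab, but the step was smaller than for PRDX1 and PRDX6. The change was 0.39 on the log2 scale (SE 0.0445, adjusted p = 6.66e-09, edgeR) in NR and 0.34 (SE 0.0468, adjusted p = 3.58e-07, edgeR) in SP. Its 95% intervals, 0.30 to 0.48 and 0.24 to 0.43, lay below those of PRDX1, which were 0.66 to 0.84 and 0.64 to 0.82. With an offset for length and GC content the PRDX4 value in NR was 0.255, below the printed interval, and still passed. The same offset took PRDX1 to 0.593 in NR and 0.635 in SP, both below its printed intervals, and both still passed. PRDX4 and PRDX1 were not set against each other in a test.

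**Figure D3:**
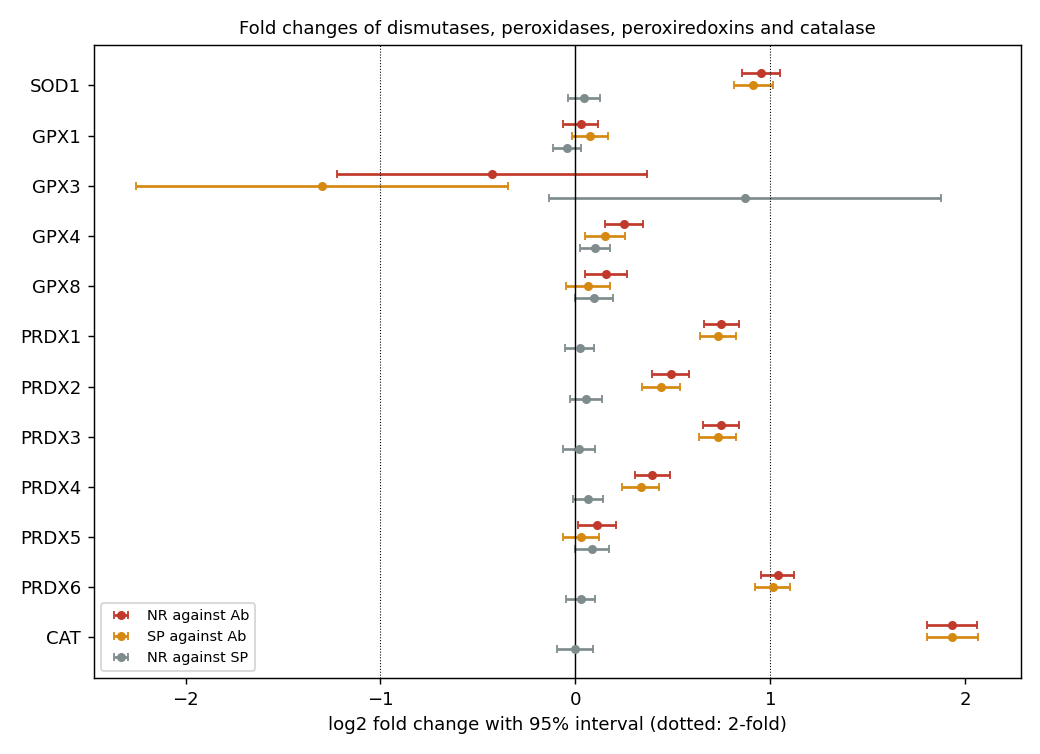
Log2 fold changes with 95% intervals from edgeR for 12 genes of the families and catalase, for NR against Ab, SP against Ab and NR against SP, where the dotted lines mark 2-fold. PRDX6 and SOD1 lie close to the 2-fold line in NR and SP against Ab, CAT lies near 1.93, and GPX3 has the widest intervals.

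The other members of the families and catalase give the frame for these values. Of 8 listed genes, GPX5, GPX6 and GPX7 were listed at 0 in every library, and all 5 tested genes rose in NR while 3 rose and 2 did not pass in SP. Catalase (CAT), which breaks down hydrogen peroxide in peroxisomes, averaged 97.2 CPM in NR, 97.4 CPM in SP and 25.0 CPM in Ab, with log2 fold changes of 1.93 and 1.93 (adjusted p = 7.80e-21 and 3.81e-20, edgeR), larger than that of any member. The mitochondrial PRDX3 stood at 0.75 and 0.73 (adjusted p = 1.34e-14 and 5.05e-14, edgeR), close to PRDX1, and the cytosolic PRDX2 at 0.49 and 0.44 (adjusted p = 1.77e-10 and 4.00e-09, edgeR). PRDX5, the atypical form of mitochondria and peroxisomes, was at 0.11 in NR (adjusted p = 0.0416, edgeR), a call that was lost under 10 of 16 alternatives, and at 0.03 in SP (95% interval -0.06 to 0.12, adjusted p = 0.578, edgeR). GPX8, a form of the endoplasmic reticulum without selenium, was at 0.16 in NR (adjusted p = 0.00990, edgeR), a call lost without NR replicate 1 (adjusted p = 0.112), and at 0.06 in SP (95% interval -0.05 to 0.18, adjusted p = 0.301, edgeR).

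Thioredoxin regenerates PRDX1, and its list mostly rose. Of 9 genes, 6 rose and 3 fell in NR, and 5 rose and 3 fell in SP, with medians of 0.75 and 0.76. TXN averaged 308 CPM in NR and 300 CPM in SP against 170 CPM in Ab (log2 fold changes 0.83 and 0.79, edgeR adjusted p = 1.04e-15 and 1.47e-14). TXNRD1, the reductase that reduces thioredoxin and is itself a selenoprotein, rose by 0.69 and 0.80 (adjusted p = 3.42e-15 and 1.33e-14). TXNIP, a protein that binds and inhibits thioredoxin, fell from 633 CPM to 172 CPM in NR and 163 CPM in SP (log2 fold changes -1.91 and -1.99, edgeR adjusted p = 1.24e-22 and 2.27e-09). SRXN1, which repairs over-oxidised peroxiredoxins and is named after its values were seen, was counted at 2.02, 1.29 and 1.18 CPM in NR, SP and Ab and passed as higher in NR (0.75, adjusted p = 0.0176, edgeR). The annotation places 90.7% of its exon bases in another same-strand gene as well, so its level is uncertain.

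Of 6 partners of PRDX4 in the endoplasmic reticulum, 1 rose and 3 fell in each comparison, with medians of -0.03 and -0.04, beside 36.4% of all tested genes passing as lower in NR and 36.6% in SP. PDIA3 was at -0.13 and -0.15 (adjusted p = 0.00627 and 0.00190, edgeR) and PDIA4 at -0.12 and -0.11 (adjusted p = 0.0154 and 0.0287, edgeR). The PDIA4 call passed under 13 of 16 alternatives in NR and under 10 of 16 in SP. P4HB, a protein disulfide isomerase, was at 0.09 and 0.06 (adjusted p = 0.0651 and 0.229, edgeR), and passed as higher under 5 of 16 alternatives in NR and 2 of 16 in SP. Named after its values were seen, PDIA6, another disulfide isomerase, was the riser, from 158 CPM in Ab to 232 CPM in NR and 234 CPM in SP (log2 fold changes 0.53 and 0.55, edgeR adjusted p = 1.21e-11 and 1.71e-11), a larger value than that of PRDX4 itself. ERO1B, an oxidase of these isomerases that is named after its values were seen as well, was at -0.51 and -0.36 (adjusted p = 6.34e-06 and 0.00101, edgeR).

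Both the glutathione and the thioredoxin routes draw on NADPH. Of the 13 genes of its supply, 10 rose and 2 fell in each comparison, with medians of 0.66 and 0.63. TKT, a transketolase of the pentose phosphate pathway, rose from 585 CPM to 1271 CPM in NR and 1240 CPM in SP (log2 fold changes 1.09 and 1.06, edgeR adjusted p = 1.43e-19 and 2.76e-18). NNT, the mitochondrial transhydrogenase, rose by 1.34 and 1.36 (adjusted p = 1.28e-20 and 1.50e-20), and PGD by 0.66 and 0.63 (adjusted p = 4.15e-13 and 3.41e-12). IDH2, a mitochondrial isocitrate dehydrogenase that makes NADPH and is named after its values were seen, was at 2.55 in NR and 2.56 in SP.

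The sources of superoxide and peroxide were read in the same way. Of 20 listed genes 10 were tested in NR, where 6 rose and 3 fell, and 9 in SP, where 6 rose and 3 fell. MAOB, a mitochondrial oxidase that releases hydrogen peroxide, rose from 47.9 CPM to 300 CPM in NR and 305 CPM in SP (log2 fold changes 2.62 and 2.65, edgeR adjusted p = 1.11e-25 and 7.25e-25). CYBA, a subunit of the NADPH oxidases, rose by 0.49 and 0.44 (adjusted p = 1.11e-10 and 1.04e-08), and RAC1, which activates them, by 0.19 and 0.13 (adjusted p = 0.000266 and 0.00829). Named after their values were seen, the 3 that fell were NOX1 at -1.52 and -1.34, NOXA1 at -1.03 and -0.86, and XDH at -0.90 and -1.43. CYBB, also named afterwards, rose by 2.58 and 2.21. NOX1 averaged only 1.39 CPM in Ab, and CYBB only 2.64 CPM in NR. The oxidase genes therefore moved in both directions. Beside GPX4, the list of lipid peroxide formation and its GPX4-independent protection gave 5 rising and 2 falling genes of 9 tested in each comparison. ACSL4, which feeds polyunsaturated fatty acids into phospholipids, rose by 0.48 and 0.53 (adjusted p = 7.54e-09 and 6.01e-09), AIFM2, which protects membranes independently of GPX4, fell by 0.39 and 0.31 on the log2 scale (adjusted p = 1.31e-07 and 2.37e-05), and POR fell by 0.30 and 0.30 (adjusted p = 2.82e-05 and 7.90e-05).

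Of 11 transcription regulators of antioxidant genes, 7 fell in NR and 8 in SP, and none passed as higher, with medians of -0.50 and -0.48. Of all tested genes, 36.4% passed as lower in NR and 36.6% in SP. KEAP1, SIRT3 and PPARGC1A, named after their values were seen, passed in neither comparison, at 0.10 and 0.11, -0.16 and -0.02, and 0.15 and 0.15. RELA fell by 0.79 and 0.78 on the log2 scale (adjusted p = 1.92e-14 and 1.25e-13, edgeR). NFE2L2, which encodes NRF2, fell from 140 CPM to 108 CPM in NR and 102 CPM in SP (log2 fold changes -0.40 and -0.48, edgeR adjusted p = 0.00914 and 0.00302), and its NR call was lost without NR replicate 1 (adjusted p = 0.0641) or NR replicate 3 (adjusted p = 0.0638). Of its exon bases 38.4% are annotated in other genes as well. NFKB1 was at -0.09 in NR (adjusted p = 0.136, edgeR) and at -0.17 in SP (adjusted p = 0.00910, edgeR), a call lost with a length and GC offset (-0.08, adjusted p = 0.407).

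**Figure D4:**
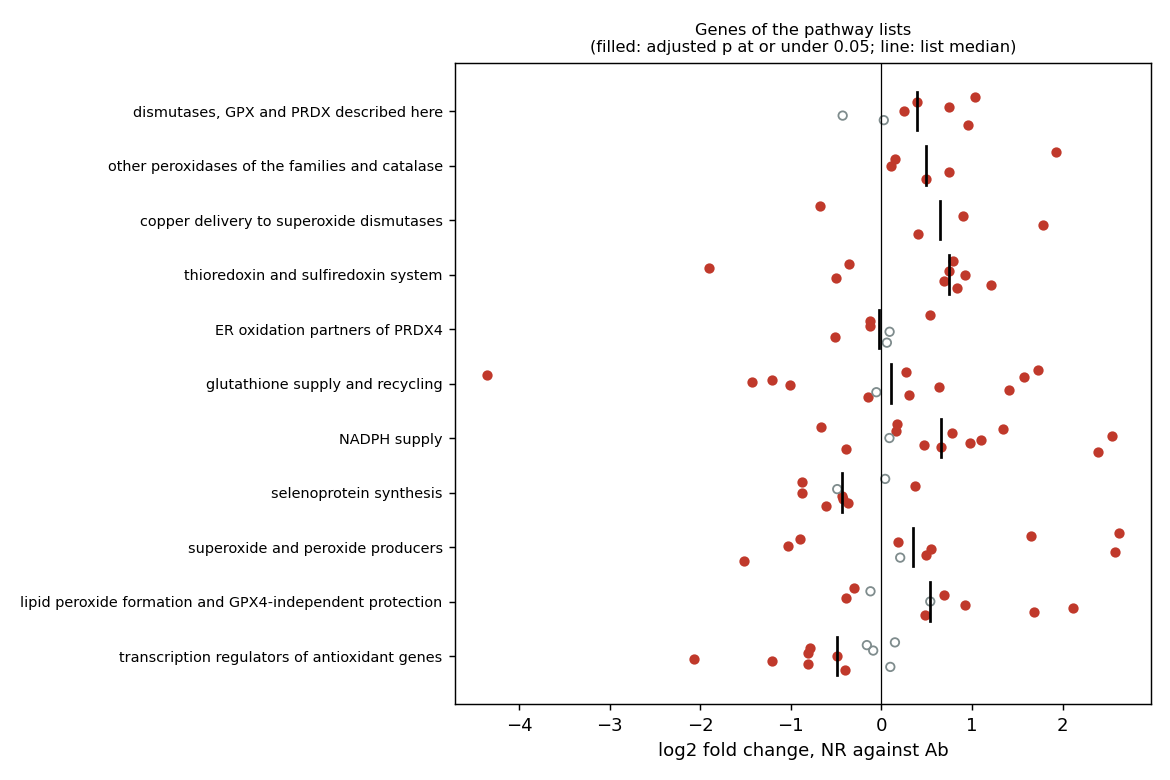
Log2 fold change in NR against Ab of every tested gene of the members and the 10 pathway lists (points, filled where the adjusted p is at most 0.05), with the median of each list as a line. The members' median is 0.39, the thioredoxin list has the highest median at 0.75, and the regulators (-0.50) and the selenoprotein synthesis list (-0.44) have the lowest.

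No member passed between the rod and the sphere groups. The study's rods and spheres also differed in size and supplier, so shape alone was not compared. In NR against SP, 0 of the 7 tested members passed in edgeR, 0 passed in DESeq2, and 1 had an unadjusted p under 0.05, where 0.443% of 14903 genes passed and 12.9% had an unadjusted p under 0.05. That one was GPX4, at a log2 fold change of 0.10 (95% interval 0.03 to 0.18, unadjusted p = 0.0112 and adjusted p = 0.221, edgeR). Its 3 NR libraries all lay above its 3 SP libraries, as was so for 8.21% of all genes. SOD1 was at 0.04 (95% interval -0.04 to 0.13), PRDX1 at 0.02 (-0.06 to 0.10), PRDX4 at 0.06 (-0.01 to 0.14), PRDX6 at 0.03 (-0.05 to 0.10) and GPX1 at -0.04 (-0.12 to 0.03). For these 5 genes and GPX4 a difference between rods and spheres of more than 0.18 on the log2 scale lies outside the interval. For GPX3, at 0.87, the interval ran from -0.13 to 1.87, and the value ranged from 0.514 to 1.389 with each library left out. None of the 89 tested pathway genes passed either, and CAT was at -0.002.

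The 2 genes whose pattern over the 9 libraries was most like that of PRDX6 were AP1S1, a subunit of a clathrin adaptor, and AHCY, which hydrolyses S-adenosylhomocysteine (Pearson r of log2(CPM + 1) of 0.9993 and 0.9992). Of the 14434 genes compared, 2913 had an r over 0.95, and the points share 3 groups of which 2 stand together, so such likeness was common in these libraries. AP1S1 rose by 1.61 and 1.59 (adjusted p = 8.21e-20 and 8.79e-19, edgeR) and AHCY by 0.96 and 0.93 (adjusted p = 6.62e-17 and 5.76e-16, edgeR).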

How the data were processed

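The authors aligned paired reads of poly-A libraries with HISAT2 2.1.0 and deposited raw counts per Ensembl gene for 9 libraries. Their reporting summary names hg19, while the submitters' processing notes list mm9, against the human IDs of the files; hg19 was used here. Annotation release and strand setting are not given in the sources used here. Symbols, positions and lengths came from GENCODE lifted to GRCh37, which named 59858 of 60880 IDs; unnamed IDs held at most 0.115% of a library. No value is given for PECAM1.

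Each pair of groups was fitted on its own 6 libraries with edgeR 4.0.16 (R 4.3.3): TMM factors, filterByExpr (minimum count 10, total 15), robust quasi-likelihood test, Benjamini-Hochberg adjustment over all genes tested. CPM used TMM factors over 9 libraries. DESeq2 1.42.0 and other scalings, filters, fits and left-out libraries were alternatives. The scripts were tested on simulated data. Duplicate libraries were looked for and not found. Members and lists were chosen with earlier results of these data known. Genes were named by rule: all members, all other family members and catalase, the 3 most abundant of every other list, and the 2 genes most like each member past 2-fold as passed in both comparisons with Ab.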

Additional observations from a re-analysis of the deposited data

How the results depend on the processing

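The calls of SOD1, PRDX1, PRDX4 and PRDX6 against Ab, and that of GPX4 in NR against Ab, kept their direction and passed under all 16 alternatives run for each. Members passing in NR against Ab numbered 5 under each of these 16, and in SP against Ab 5 to 7. A further setting, which asked for a change of at least 2-fold as well, left 1 and 2 members and took genes passed from 10916 to 3409 in NR against Ab, from 11002 to 3502 in SP against Ab and from 66 to 3 in NR against SP, and pathway genes from 75 to 24 and from 73 to 27. In NR against SP, genes passed numbered 143 with DESeq2, 328 with at least 1 count in any library, 15 with a length and GC offset and 21 with that offset and the replicate block. Genes past 2-fold there numbered 0 with DESeq2 and 27 with at least 1 count in any library, against 3. Leaving out each library gave 10 to 188 genes passed, 0 to 28 past 2-fold and 0 to 1 pathway genes. Those passed numbered 144, 10 and 23 without NR replicates 1, 2 and 3 and 11, 18 and 188 without SP replicates 1, 2 and 3, against 66. With at least 1 count in any library 1 pathway gene passed. The cause of these shifts was not tested.

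Values that missed the threshold changed sign in places. NFKB1 in NR against Ab went to 0.051 with the length and GC offset and to 0.052 with the offset and the block. LRP8 in SP against Ab went to -0.033 with that offset in both forms and ranged from -0.021 (without SP replicate 2) to 0.052 with each library left out. GPX1 in NR against Ab ranged from -0.011 (without Ab replicate 2) to 0.066 and was -0.004 without NR replicate 1. In NR against SP, the offset in both forms took PRDX1 to -0.033, PRDX4 to -0.006 and PRDX6 to -0.013, and PRDX1 ranged from -0.007 to 0.048 with each library left out. The order of levels by the longest transcript changed the place of 2 members.

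The replicate numbers did not pair the samples, since the deviations of same-numbered libraries correlated at -0.03 to 0.03 over 9 pairs. With the replicate block 10630, 10970 and 51 genes passed in NR against Ab, SP against Ab and NR against SP, members passing numbered 5, 6 and 0, and 1 pathway gene passed in NR against SP. With the block and the length and GC offset together, in SP against Ab GPX1 passed (0.11, adjusted p = 0.00437) and NFKB1 did not (-0.07, adjusted p = 0.369). Depth limits GPX3, SOD3 and GPX2, and counting intervals cover counting error only.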
